A study of Homo sapiens with 15 samples.

Results

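The genes described here are 261 protein-coding genes on the long arm of human chromosome 17 (17q), from MED1 to SNHG20 in the gene order of the GENCODE annotation. They were measured in an ovarian cancer cell line and in 4 platinum-resistant lines made from it. A member had to have a mean of at least 1 over the 15 samples, on the scale of log2 RPKM, which is the base 2 logarithm of a gene's reads scaled to its length and to the sequencing depth. The table held 374 protein-coding rows in this stretch, of which 73 fell below that mean and 40 were left out by symbol whatever their level, among them the HOXB, keratin, integrin and collagen genes and ERBB2. The 261 members came from 16604 genes in all, or from 10110 protein-coding genes that reached the same mean. The members just inside the limit were AOC2 at 1.01, RNFT1 at 1.03 and RAMP2 at 1.04, and the genes just outside it were EVPL at 0.997, HDAC5 at 0.918 and SEPTIN4 at 0.914. As 12 of the 15 samples came from derived lines, a gene could pass this limit through its level in those lines. The stretch was chosen because its genes stood higher in the derived lines than in the parental line. Levels against the parental line are therefore a description here, and p-values are given only for comparisons among the carboplatin lines, which use no parental sample.

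OVCAR4 is a long-established cell line from high-grade serous ovarian carcinoma (HGSC), an aggressive epithelial cancer that is usually treated with platinum drugs, which crosslink DNA. The parental line, Ovcar4Parental, is sensitive to cisplatin and carboplatin. Ov4Cis was made from it by growth in rising cisplatin and Ov4Carbo by growth in rising carboplatin, and both are labelled resistant. Ov4Carbo4 and Ov4Carbo7 each grew from a single cell of Ov4Carbo, so each is 1 clone of that population. All lines were grown in DMEM with serum and antibiotics, each line has 3 biological replicates, and polyadenylated RNA was sequenced. No DNA copy number was measured in the data used here. In bulk RNA of a culture, fewer cells with a transcript and less transcript per cell cannot be told apart.

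HGSC cells carry many gained and lost chromosome segments, and a gained segment can raise the RNA of many neighbouring genes by a similar, small amount. The stretch holds the neighbourhood of ERBB2, which is amplified in some breast and gastric cancers, and the 17q23 region around TBX2 and RPS6KB1, which is amplified in some breast cancers. It also carries genes of many unrelated functions, from subunits of Mediator (the complex that links transcription factors to RNA polymerase II) to the heavy chain of clathrin.

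The promoters of 4 members show the range of sequence among the members. The RefSeq promoter table of GRCh38.p14 held 215 of the 261 members. The 250 bases before the start are shown for 4 of them. MAP2K6 and MPP2 had the largest F among members whose largest absolute log2 fold change against the parental line was positive. TLK2 and DHX8 had the log2 fold changes in Ov4Carbo7 nearest to the members' median. Each is written 5′ to 3′ on the gene's own strand, with every CG dinucleotide in capitals. The windows are chr17:69414447-69414696 on the plus strand for MAP2K6, chr17:43909712-43909961 on the minus strand for MPP2, chr17:62477561-62477810 on the plus strand for TLK2 and chr17:43483725-43483974 on the plus strand for DHX8.
MAP2K6: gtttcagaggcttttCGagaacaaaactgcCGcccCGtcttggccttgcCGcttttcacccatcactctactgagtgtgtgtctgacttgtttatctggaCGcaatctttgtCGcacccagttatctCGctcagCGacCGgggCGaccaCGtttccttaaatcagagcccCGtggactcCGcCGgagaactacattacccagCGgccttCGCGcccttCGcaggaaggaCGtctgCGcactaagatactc
MPP2: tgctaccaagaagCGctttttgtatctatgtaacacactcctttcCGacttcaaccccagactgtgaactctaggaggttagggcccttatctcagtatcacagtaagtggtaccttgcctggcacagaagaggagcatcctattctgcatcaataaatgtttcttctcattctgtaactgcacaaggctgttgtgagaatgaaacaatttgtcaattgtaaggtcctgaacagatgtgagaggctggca
TLK2: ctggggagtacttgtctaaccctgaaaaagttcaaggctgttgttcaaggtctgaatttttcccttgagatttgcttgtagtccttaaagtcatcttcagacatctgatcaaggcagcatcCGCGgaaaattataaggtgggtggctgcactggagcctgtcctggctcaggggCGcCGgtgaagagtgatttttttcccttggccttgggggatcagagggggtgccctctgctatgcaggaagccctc
DHX8: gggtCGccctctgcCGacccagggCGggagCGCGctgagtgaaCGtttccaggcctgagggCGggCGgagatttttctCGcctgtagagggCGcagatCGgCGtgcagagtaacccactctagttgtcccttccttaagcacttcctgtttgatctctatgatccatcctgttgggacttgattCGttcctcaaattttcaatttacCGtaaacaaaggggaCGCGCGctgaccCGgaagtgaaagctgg
These windows hold 20 CG dinucleotides in MAP2K6, 18 in DHX8, 4 in TLK2 and 2 in MPP2. The 2 members nearest to the median therefore had a promoter rich and a promoter poor in CG. Over the 215 matched members the median was 20, against 11 over the 27303 promoters of the same length in the table, which also include genes that are not expressed here. The letters GGGCGG, searched on both strands, were in 68.4% of the members' windows and 42.3% of all windows. CCAAT was in 41.4% against 33% and TATAAA in 4.19% against 11.1%. A match is a string of letters and shows no binding. UNC13D and GJC1, which had the largest F among members whose largest absolute log2 fold change was negative, are named without a sequence.

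The members stood higher in all 4 derived lines, by a similar amount in each. Relative to the parental mean of each gene, the median over members was 0.56 to 0.64 log2 units in the 3 Ov4Cis samples, 0.56 to 0.61 in Ov4Carbo, 0.64 to 0.65 in Ov4Carbo4 and 0.66 to 0.68 in Ov4Carbo7. The 3 parental samples lay between -0.00 and 0.02, far below the lowest derived sample. By line the mean of these sample medians was 0.590 ± 0.039 in Ov4Cis, 0.576 ± 0.026 in Ov4Carbo, 0.646 ± 0.007 in the single-cell line Ov4Carbo4 and 0.669 ± 0.008 in the single-cell line Ov4Carbo7 (SD, n = 3 each). The members made up 1.65% ± 0.015 of the summed RPKM of the parental samples and 2.31% ± 0.031 to 2.42% ± 0.035 in the derived lines (SD, n = 3 each). Over the expressed protein-coding genes of all other chromosomes together, the sample medians lay between -0.02 and 0.03.

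**Figure D1:**
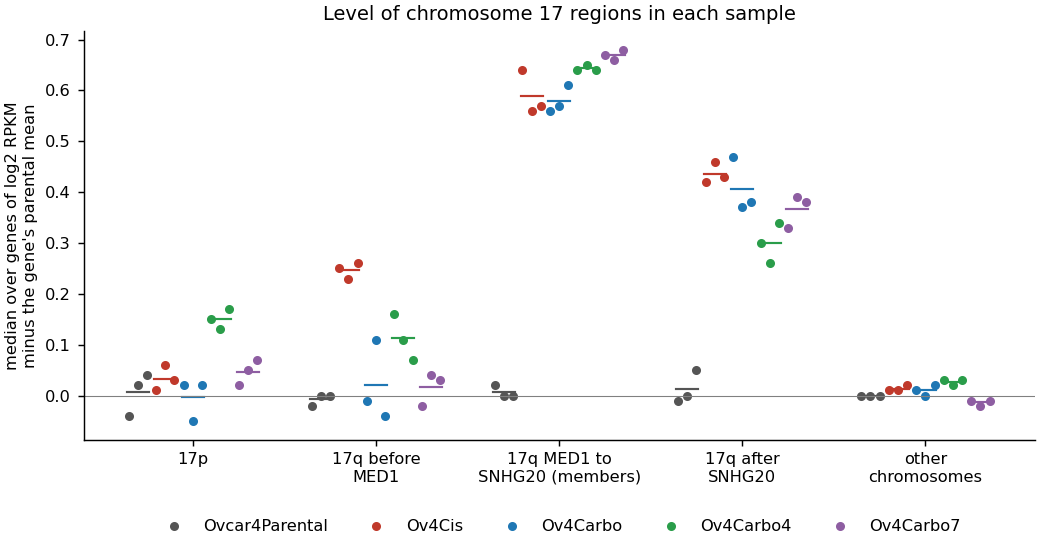
Median over genes of log2 RPKM minus the gene's parental mean (vertical axis, log2 units), for 4 regions of chromosome 17 and for the other chromosomes. Each point is a sample, each bar the mean of the 3 samples of a line; the 12 derived samples lie between 0.56 and 0.68 over the members, and the 3 parental samples between -0.00 and 0.02.

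The median log2 fold change of the members from the limma fit was 0.58 in Ov4Cis, 0.56 in Ov4Carbo, and 0.66 and 0.67 in Ov4Carbo4 and Ov4Carbo7, or 1.5, 1.47, 1.58 and 1.59 times the parental level. The middle 50% of members ran from 0.39 to 0.80 in Ov4Cis, 0.35 to 0.83 in Ov4Carbo, 0.42 to 0.86 in Ov4Carbo4 and 0.36 to 0.89 in Ov4Carbo7. These ranges lie above 0, so the shift was spread over most members. The same median over all genes tested was 0.04, 0.03, 0.07 and 0.02 in the same order.

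A gene was called at a limma adjusted p under 0.05, with no limit on the fold change. In Ov4Cis 189 members were called higher and 13 lower, beside 19.8% and 16.4% of all genes tested. Ov4Carbo had 179 higher and 7 lower, beside 17.7% and 16.2% of all genes. Ov4Carbo4 had 201 higher and 7 lower, beside 21.6% and 18.0%, and Ov4Carbo7 had 188 higher and 8 lower, beside 22.2% and 20.4%. All 12 derived values lay above all 3 parental values in 153 members, beside 6.17% of all genes. All 12 lay below them in 1 member, CDR2L, beside 4.95% of all genes. The 4 comparisons share the 3 parental samples, and the members were chosen on these comparisons, so the counts are a description. With only its own 2 groups in the fit, Ov4Carbo had 95 members called in both directions together against 186. The share of all genes called was not computed for this fit or the next one. A term for the number series in the sample titles left 132 called members in Ov4Carbo4 and 127 in Ov4Carbo7. All parental samples lie in 1 of the 2 series and all samples of both single-cell lines in the other. Line and series can therefore be told apart in these comparisons only through Ov4Carbo, which has samples in both series.

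**Figure D2:**
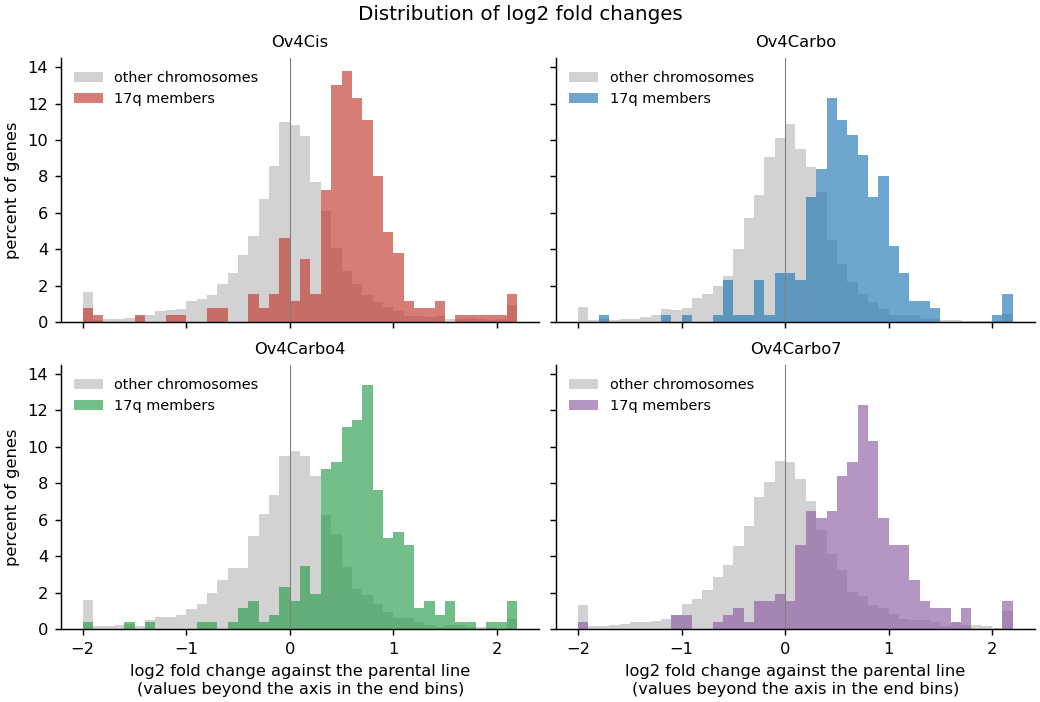
Distribution of log2 fold changes against the parental line (horizontal axis) as a percent of genes per bin (vertical axis), for the 261 members in colour and expressed protein-coding genes of other chromosomes in grey, 1 panel per derived line. Values beyond the axis are in the end bins; the members' distributions are centred near their medians of 0.58, 0.56, 0.66 and 0.67 and the grey ones near 0.

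Along the arm the shift was broad. The members were read in their order in runs of 20, which gave 13 runs and the single last member, MGAT5B. The run from TUBG2 to TMEM101 had medians of 0.78 in Ov4Cis, 0.68 in Ov4Carbo, and 0.75 and 0.90 in Ov4Carbo4 and Ov4Carbo7. From WIPI1 to ARMC7, toward the end of the stretch, the medians were 0.58, 0.71, 0.71 and 0.96. The last full run, from TRIM47 to MFSD11, was the lowest in Ov4Carbo, at 0.33, and in Ov4Carbo4, at 0.44. In Ov4Cis the lowest was the run from NT5C to WBP2, at 0.50, and in Ov4Carbo7 that from LSM12 to PLCD3, at 0.41. No run of 20 had a median under 0.33 in any derived line.

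The short arm did not share the shift. Its 159 expressed protein-coding genes had medians of 0.01 in Ov4Cis, 0.02 in Ov4Carbo, and 0.15 and 0.05 in Ov4Carbo4 and Ov4Carbo7. Beyond SNHG20 the 79 expressed genes that end the arm had medians of 0.44, 0.37, 0.33 and 0.35, between the members and the short arm. They were uneven. The run of 20 from CCDC40 to CCDC137 had 0.57, 0.54, 0.53 and 0.61, near the members' medians, and the other runs there had 0.15 to 0.51. Of the 79 genes 59.5%, 51.9%, 53.2% and 50.6% were called higher, so the shift did not stop at SNHG20. Among the 22 other chromosomes, the highest median was 0.23 on chromosome 22 in Ov4Cis, 0.16 on chromosome 12 in Ov4Carbo, 0.53 on chromosome 9 in Ov4Carbo4 and 0.20 on chromosome 18 in Ov4Carbo7. The members' median was above the highest of these whole-chromosome medians in each line. The stretch is only part of a chromosome and was chosen for its higher levels. Parts of other chromosomes were not compared.

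**Figure D3:**
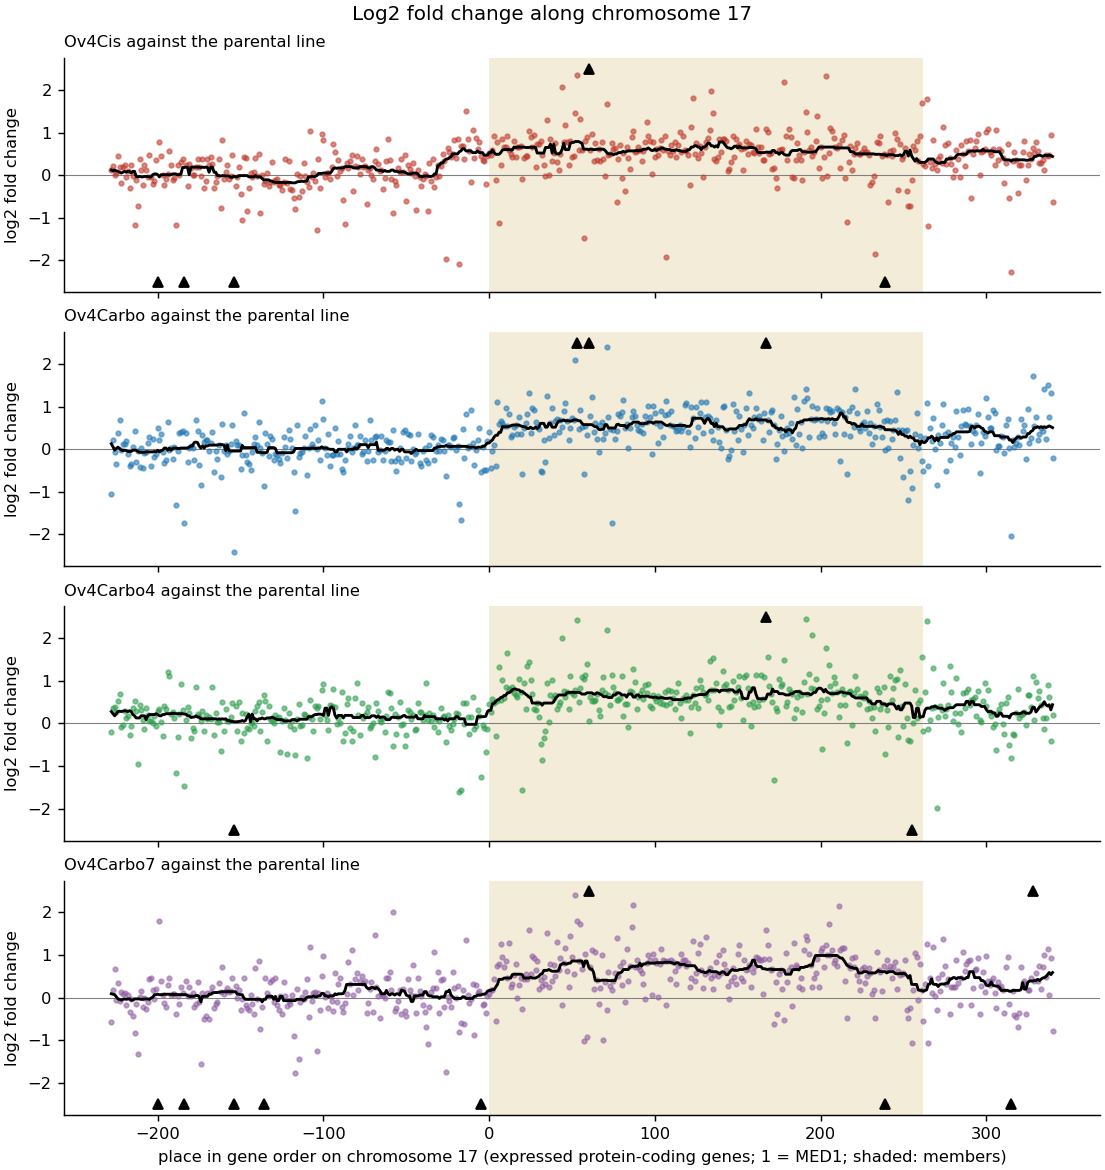
Log2 fold change against the parental line (vertical axis) of expressed protein-coding genes by their place in gene order on chromosome 17 (horizontal axis, 1 = MED1), 1 panel per derived line, with the members shaded. Points are genes, the black line is a running median, and triangles mark genes beyond 2.5 in size; the line leaves 0 near MED1 in the carboplatin lines and earlier in Ov4Cis.

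Near MED1 the lines differed in where the higher levels began. The 20 expressed genes before MED1, from PSMD11 to FBXL20, had a median of 0.55 in Ov4Cis, against 0.06 in Ov4Carbo, -0.03 in Ov4Carbo4 and 0.00 in Ov4Carbo7. This difference between Ov4Cis and the other lines was not tested. MED1 (ENSG00000125686), a Mediator subunit that binds nuclear receptors, had parental values of 3.63, 3.84 and 3.81 log2 RPKM. Its values were 4.16, 4.30 and 4.22 in Ov4Cis, 3.23, 3.19 and 3.55 in Ov4Carbo, 4.05, 4.11 and 3.98 in Ov4Carbo4, and 3.56, 4.07 and 4.15 in Ov4Carbo7. The Ov4Cis samples were all above the parental ones and the Ov4Carbo samples all below them. CDK12, a kinase of RNA polymerase II, had a log2 fold change of 0.60 (SE 0.18) in Ov4Cis and -0.04 (SE 0.18) in Ov4Carbo. STARD3, which moves cholesterol in late endosomes, had 0.92 (SE 0.12) in Ov4Cis and 0.11 (SE 0.12) in Ov4Carbo. The first 5 members, MED1 to MIEN1, had medians of 0.60, -0.04, 0.47 and 0.19 in the 4 lines, and the next 5, GRB7 to MED24, of 0.66, 0.63, 0.86 and 0.86. Just outside, FBXL20 had 0.53, 0.40, 0.46 and 0.08, the ribosomal protein gene RPL19 0.44, 0.19, -0.13 and 0.03, and CACNB1 -0.20, -0.49, -0.66 and -0.35.

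The other end was uneven. MGAT5B (ENSG00000167889), a glycosyltransferase, had parental values of 1.85, 2.28 and 1.71. It stood at 3.72, 3.64 and 3.59 in Ov4Cis and 3.57, 3.19 and 3.75 in Ov4Carbo4, above every parental sample. In Ov4Carbo it had 2.19, 1.72 and 1.10, and in Ov4Carbo7 2.02, 1.95 and 2.39, which overlapped the parental values. The splicing factor SRSF2 had log2 fold changes of 0.33, 0.04, 0.48 and -0.05 (SE 0.11 each) in the lines in the same order, and MFSD11, whose exons overlap those of SRSF2 on the opposite strand, 0.92, 0.31, 0.55 and 0.78 (SE 0.18 each). Past the end, SEC14L1 had 0.26, -0.52, -0.17 and -0.54, and TNRC6C, which acts in gene silencing by microRNAs, had 1.78, 1.09, 2.41 and 1.26. Close to this end a few neighbours went the other way: the 5 members from RHBDF2 to MXRA7 had medians of -0.37, -0.51, -0.38 and -0.29. Among them CYGB, an oxygen-binding globin, and PRCD overlap on opposite strands, and their reads cannot be told apart without strand.

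Members were also read in 11 lists written from general knowledge. The ERBB2 neighbourhood and the 17q23 amplicon are lists by place on the arm, and the others are by role. The shares called higher in Ov4Cis, Ov4Carbo, Ov4Carbo4 and Ov4Carbo7 were 72.4%, 68.6%, 77% and 72.0% over all members and 19.8%, 17.7%, 21.6% and 22.2% over all genes tested. Called lower were 4.98%, 2.68%, 2.68% and 3.07% of the members, so a list of 8 to 34 genes would hold few at that rate. The list counts below are read against these shares, list values are given in the same order of lines, and no list was tested against the other members. In the ERBB2 neighbourhood, 16, 10, 17 and 13 of 21 members were called higher (76.2%, 47.6%, 81.0% and 61.9%), and 1 was called lower in each line. The list's medians were 0.60, 0.53, 0.72 and 0.46. MED24, another Mediator subunit, was called higher in every derived line, by 0.67, 0.98, 0.86 and 0.86 (SE 0.12 each). RARA, the retinoic acid receptor alpha, had 0.66, 0.75, 1.05 and 0.29 (SE 0.11 each). GRB7, an adaptor of receptor tyrosine kinases, was the member of this list called lower in Ov4Cis. It had parental values of 1.76, 0.58 and 0.80 and Ov4Cis values of 0.19, -0.27 and -0.17, and stood at 2.28, 2.41 and 2.45 in Ov4Carbo4. THRA, the thyroid hormone receptor alpha, had 2.25, 2.04 and 2.13 in the parental line and 3.82, 3.89 and 3.69 in Ov4Carbo4; its exons overlap those of NR1D1 on the opposite strand.

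The 17q23 amplicon list had 25 members. Called higher were 20, 18, 22 and 19 (80.0%, 72.0%, 88.0% and 76.0%, beside 72.4%, 68.6%, 77% and 72.0% of all members), with 0 lower in any line, and the medians were 0.62, 0.66, 0.74 and 0.73. TBX2 (ENSG00000121068), a T-box repressor of transcription, had the highest fold change of the list in the 3 carboplatin lines. Its parental values were -0.37, -0.30 and 0.36, and its values were 0.96, 1.05 and 0.92 in Ov4Cis, 2.64, 2.23 and 2.67 in Ov4Carbo, 4.03, 3.17 and 3.91 in Ov4Carbo4, and 1.39, 1.89 and 1.21 in Ov4Carbo7. Every derived sample was above every parental one, and Ov4Carbo4 was above all others. DHX40, an RNA helicase, shifted more evenly, from 2.70, 2.75 and 2.68 to 3.56, 3.45 and 3.51 in Ov4Cis, 3.57, 3.76 and 3.68 in Ov4Carbo, 3.89, 3.91 and 3.74 in Ov4Carbo4, and 3.32, 3.33 and 3.39 in Ov4Carbo7. INTS2, a subunit of the Integrator complex that cleaves nascent RNA, had log2 fold changes of 1.02, 0.69, 1.55 and 1.24 (SE 0.12 each), and APPBP2, a substrate receptor of a ubiquitin ligase, 0.65, 0.66, 1.13 and 0.89 (SE 0.10 each). In Ov4Carbo7 the lowest member of the list was the splicing factor SRSF1, at -0.03.

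Of 32 members in the transcription and chromatin list, 23, 18, 24 and 19 were called higher (71.9%, 56.2%, 75% and 59.4%) and 2, 2, 3 and 1 lower, with medians of 0.48, 0.41, 0.66 and 0.43. KANSL1, a scaffold of a histone acetyltransferase complex, had 0.54, 0.79, 0.97 and 0.72 (SE 0.08 each). The neighbouring STAT genes, which carry cytokine signals to the nucleus, were uneven. STAT5B (ENSG00000173757) had parental values of 4.38, 3.93 and 3.96, and was higher in Ov4Cis at 4.87, 4.88 and 4.95 and in Ov4Carbo7 at 4.60, 4.46 and 4.47. It was lower in Ov4Carbo at 3.63, 3.54 and 3.52 and in Ov4Carbo4 at 3.64, 3.63 and 3.58. STAT3 had log2 fold changes of 0.23, 0.23, -0.34 and 0.48 (SE 0.09 each), and STAT5A 0.47, -0.54, -0.86 and 0.28 (SE 0.21 each). MEOX1, a homeobox factor, had a parental mean of 3.30 ± 0.30 (SD, n = 3), against 0.85, 2.29 and 2.34 in Ov4Cis and 4.39, 4.70 and 3.95 in Ov4Carbo4.

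Of 22 members in the RNA processing list, 20, 17, 22 and 15 were called higher (90.9%, 77.3%, 100% and 68.2%, beside 72.4%, 68.6%, 77% and 72.0% of all members) and 0 lower, with medians of 0.59, 0.48, 0.79 and 0.57. HELZ, a helicase, had 0.60, 0.29, 1.16 and 1.02 (SE 0.11 each). That list also holds PCTP, a carrier of phosphatidylcholine rather than an RNA factor, with 1.46, 0.23, 1.53 and 0.20 (SE 0.17 each). In the list of 8 ribosomal, mitochondrial ribosomal and initiation genes, 6, 8, 7 and 8 were called higher in the 4 lines and 0 lower, with medians of 0.62, 0.93, 0.70 and 0.75. MRPL10 (ENSG00000159111), a protein of the large mitochondrial subunit, had 2.75, 2.71 and 2.59 in the parental line. It stood at 3.78, 3.51 and 3.52 in Ov4Cis, 3.59, 3.74 and 3.79 in Ov4Carbo, 3.66, 3.60 and 3.56 in Ov4Carbo4, and 3.72, 3.73 and 3.65 in Ov4Carbo7. The 12 derived values ran from 3.51 to 3.79, all above the highest parental value of 2.75. MRPS23 had 0.85, 1.02, 0.87 and 0.78 (SE 0.09 each) and MRPS7, whose exons overlap those of GGA3 on the opposite strand, 0.63, 0.65, 0.60 and 0.71 (SE 0.07 each).

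The replication and mitosis list had 18, 19, 22 and 18 of 25 members called higher in the 4 lines (72.0%, 76.0%, 88.0% and 72.0%) and 0 lower, with medians of 0.62, 0.66, 0.67 and 0.62. CEP112, a centrosomal protein, had 1.48, 1.41, 2.46 and 1.44 (SE 0.17 each). RECQL5, a DNA helicase that overlaps SAP30BP on the opposite strand, had 0.78, 1.07, 0.84 and 1.08 (SE 0.10 each). Other leading genes of this list have wider roles. NMT1 (ENSG00000136448), which attaches myristate to proteins and overlaps PLCD3 on the opposite strand, had parental values of 6.24, 6.32 and 6.29 and derived values that ran from 6.82 in Ov4Carbo4 to 7.19 in Ov4Carbo. SPAG9, a scaffold of JNK signalling, had 0.69, 0.85, 1.02 and 1.25 (SE 0.12 each). Of 20 members in the proteasome and ubiquitin list, 14, 13, 17 and 15 were called higher (70.0%, 65%, 85.0% and 75%), and 1 was lower, TRIM47 in Ov4Cis at -0.64. SPOP, a substrate adaptor of a cullin ligase, had 0.71, 0.90, 0.76 and 0.88 (SE 0.09 each), and TRIM65 0.56, 0.67, 1.11 and 0.75 (SE 0.11 each). RNFT1, which passed the level limit only through the derived lines, had parental values of 0.19, 0.07 and 0.32 and derived values of 0.95 to 1.51.

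Signalling genes included members that were high in some derived lines only. Of 34 members, 22, 22, 23 and 22 were called higher (64.7%, 64.7%, 67.6% and 64.7%, beside 72.4%, 68.6%, 77% and 72.0% of all members) and 1, 1, 4 and 0 lower, with medians of 0.53, 0.53, 0.52 and 0.73. MAP2K6 (ENSG00000108984), a kinase that activates p38, had parental values of 0.07, 0.09 and 0.34. It stood at 2.46, 2.67 and 2.39 in Ov4Cis, 1.07, 1.05 and 1.32 in Ov4Carbo, 2.03, 1.96 and 1.80 in Ov4Carbo4, and 1.40, 1.43 and 1.36 in Ov4Carbo7. All derived samples were higher, in 4 groups that did not overlap. RAMP2, a partner of the adrenomedullin receptor, was high in Ov4Cis at 2.32, 2.17 and 2.16 and in Ov4Carbo4 at 2.28, 2.12 and 2.05, while the parental values were 0.55, 0.13 and -0.22 and those of Ov4Carbo7 0.19, 0.19 and -0.44. LIMD2 showed the same split, with log2 fold changes of 2.19 and 1.50 in Ov4Cis and Ov4Carbo4 and -0.03 and -0.53 in Ov4Carbo and Ov4Carbo7 (SE 0.21 each); its exons overlap those of MAP3K3 on the opposite strand. GPRC5C, an orphan receptor, had 0.71, 0.93, 0.16 and 2.15 (SE 0.18 each). IGFBP4, a secreted protein that binds insulin-like growth factors, had 7.20, 7.20 and 6.97 in the parental line and 5.70, 5.69 and 5.25 in Ov4Carbo4.

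In the membrane traffic and lysosome list, 20, 16, 17 and 20 of 24 members were called higher (83.3%, 66.7%, 70.8% and 83.3%), with 2, 0, 1 and 1 lower and medians of 0.75, 0.56, 0.68 and 0.86. COG1, a subunit of a Golgi tethering complex, had 1.10, 0.87, 0.89 and 1.00 (SE 0.08 each), with exons that overlap FAM104A on the opposite strand. SNF8, a subunit of ESCRT-II, had 0.92, 0.80, 0.74 and 0.87 (SE 0.08 each). VAT1 (ENSG00000108828), a vesicle membrane protein, had parental values of 4.44, 3.96 and 4.01 and values of 6.44, 6.59 and 6.45 in Ov4Cis, 6.72, 6.23 and 7.03 in Ov4Carbo, 6.54, 6.83 and 6.36 in Ov4Carbo4, and 5.76, 6.15 and 5.87 in Ov4Carbo7. The lowest derived value was above the highest parental value. PLEKHM1, which promotes fusion of endosomes with lysosomes, had 1.04, 0.90, 1.27 and 2.17 (SE 0.20 each).

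UNC13D (ENSG00000092929), which primes secretory granules for release, had the lowest log2 fold change of the members in Ov4Cis, at -4.75 (SE 0.24). It had parental values of 2.96, 2.92 and 2.97. Its values were -1.64, -2.10 and -1.65 in Ov4Cis, 2.78, 2.93 and 3.09 in Ov4Carbo, 2.31, 2.16 and 2.25 in Ov4Carbo4, and -0.62, 0.52 and 0.35 in Ov4Carbo7. Ov4Carbo overlapped the parental line and the other derived lines lay below it.

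The metabolic list had 21, 23, 21 and 22 of 32 members called higher (65.6%, 71.9%, 65.6% and 68.8%) and 0, 1, 1 and 2 lower, with medians of 0.55, 0.61, 0.56 and 0.61. NT5C3B, a nucleotidase, had 1.04, 1.33, 1.44 and 1.58 (SE 0.13 each). ST6GALNAC1 (ENSG00000070526), which makes the sialyl-Tn sugar antigen, went the other way. Its parental values were 2.77, 2.91 and 3.48, with 2.52, 3.35 and 2.95 in Ov4Cis, 2.11, 2.33 and 2.00 in Ov4Carbo, 0.44, 0.36 and 0.46 in Ov4Carbo4, and 1.83, 1.94 and 2.19 in Ov4Carbo7. The Ov4Cis values overlapped the parental ones and the 9 values of the other lines were all below them. Of 23 members in the cytoskeleton and adhesion list, 14, 9, 14 and 14 were called higher (60.9%, 39.1%, 60.9% and 60.9%) and 2, 2, 1 and 2 lower, with medians of 0.54, 0.39, 0.55 and 0.58. LLGL2, a regulator of cell polarity, had 3.83, 3.68 and 3.74 in the parental line and 2.12, 1.95 and 1.62 in Ov4Cis. GJC1 (ENSG00000182963), a gap junction protein, had 3.29, 3.12 and 3.26 in the parental line, 4.14, 3.81 and 3.98 in Ov4Cis, 1.58, 1.44 and 1.43 in Ov4Carbo, 4.23, 4.43 and 4.41 in Ov4Carbo4, and 3.11, 3.40 and 3.65 in Ov4Carbo7. Ov4Carbo was far below the parental line while both of its single-cell lines were not.

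**Figure D4:**
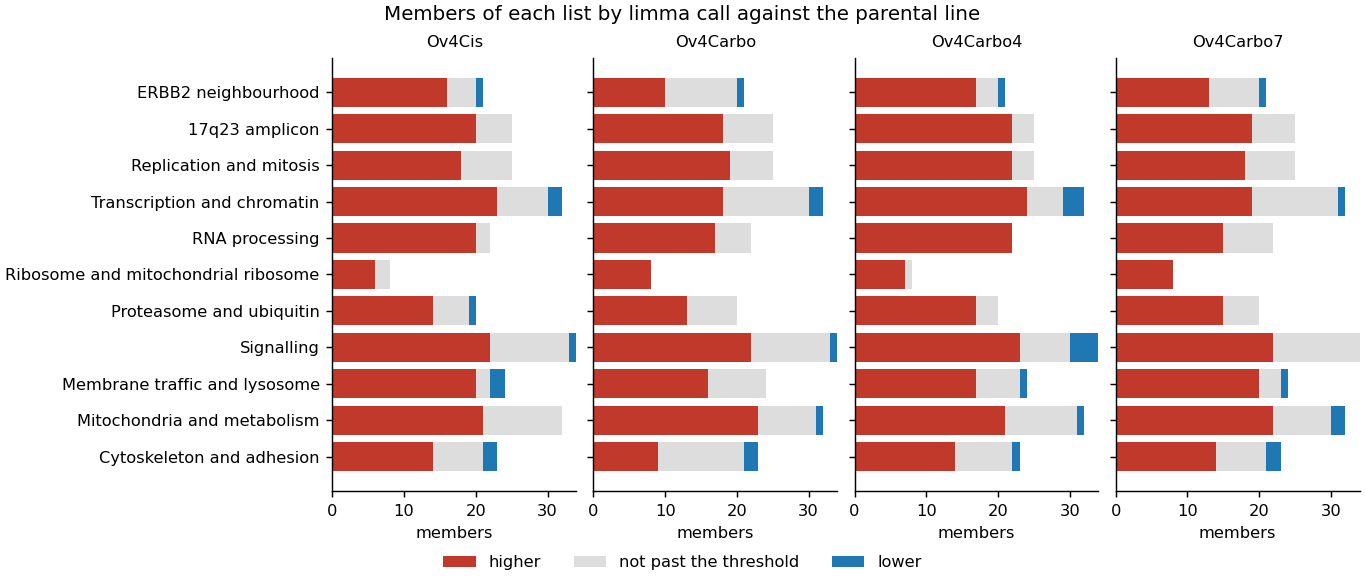
Number of members (horizontal axis) called higher, lower or not past the limma threshold of adjusted p 0.05 against the parental line. Bars are the 11 lists, by role or by place on the arm, with 1 panel per derived line. A gene can be in several lists; in the RNA processing list 20, 17, 22 and 15 of 22 were higher and 0 lower.

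The other members that the rule picked as lowest or highest were scattered over the arm. TMEM101 (ENSG00000091947) had parental values of 2.61, 0.79 and 1.00, and 5.22, 4.67 and 4.03 in Ov4Cis, 5.30, 5.78 and 4.91 in Ov4Carbo and 5.45, 5.15 and 4.43 in Ov4Carbo7. In Ov4Carbo4 it had 1.00, 1.96 and 1.66, which overlapped the parental line. IFI35, an interferon-induced gene, had 1.45, 2.10, 0.78 and 2.40 (SE 0.27 each), and MEIOC, a meiosis factor that overlaps CCDC43 on the opposite strand, 1.66, 2.41, 2.20 and -0.28 (SE 0.43 each). On the low side PHOSPHO1, a phosphatase of bone mineralization, had -1.93 (SE 0.38) in Ov4Cis and 1.13 (SE 0.38) in Ov4Carbo. CDR2L had -1.10, -0.58, -0.45 and -0.49 (SE 0.21 each), and MRC2, a collagen receptor, -1.33 (SE 0.30) in Ov4Carbo4.

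**Figure D5:**
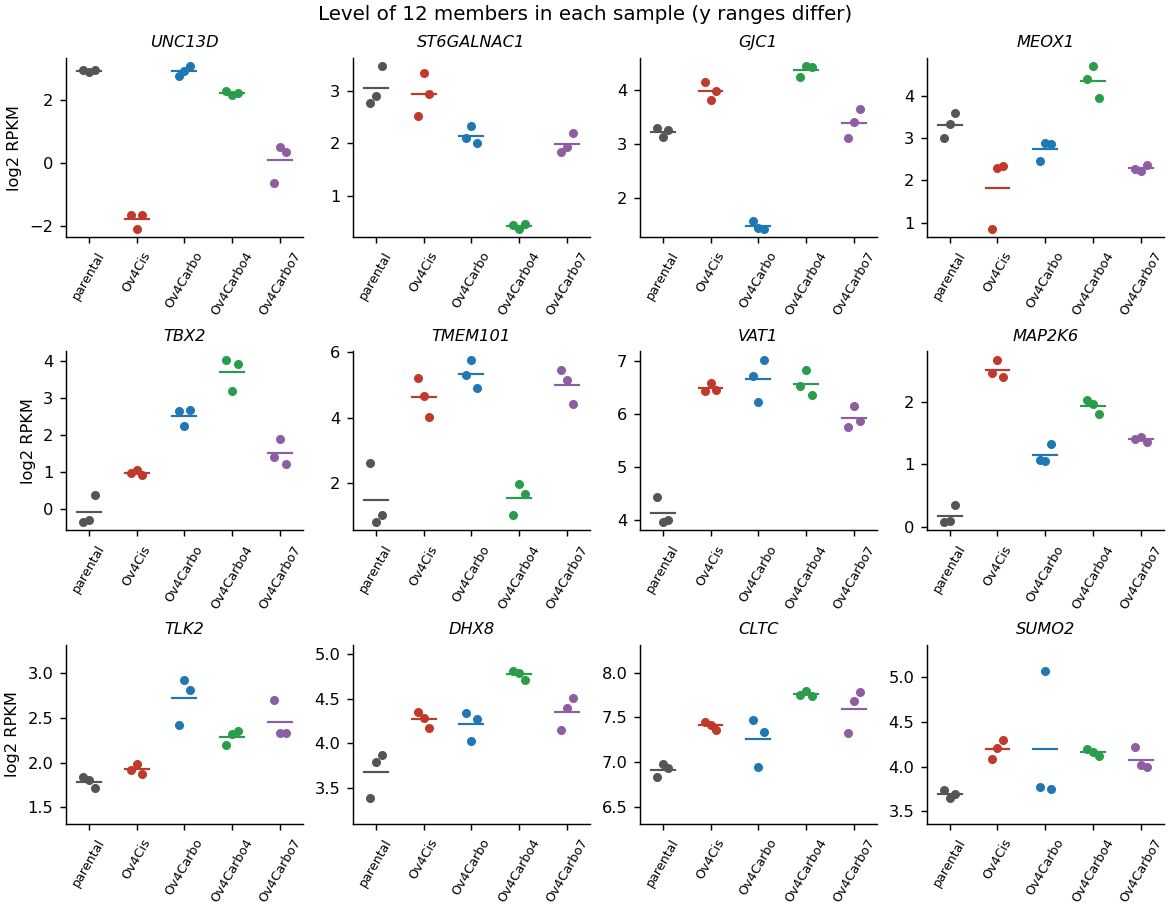
Log2 RPKM (vertical axis, whose range differs by panel) of 12 members in each of the 15 samples, with a bar at the mean of each line. UNC13D, ST6GALNAC1, GJC1 and MEOX1 are lower than the parental line in at least 1 derived line; the remaining panels show members that were higher or near the median, among them SUMO2 with its single high Ov4Carbo value of 5.07.

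Members close to the median show what a typical gene of the stretch did. DHX8, an RNA helicase that overlaps ETV4 on the opposite strand, had 3.39, 3.79 and 3.87 in the parental line, 4.35, 4.28 and 4.17 in Ov4Cis, 4.34, 4.03 and 4.27 in Ov4Carbo, 4.81, 4.79 and 4.71 in Ov4Carbo4, and 4.15, 4.40 and 4.51 in Ov4Carbo7. UTP18, which acts in ribosomal RNA processing, had 0.66, 0.76, 0.66 and 0.56 (SE 0.12 each), SMG8, which acts in nonsense-mediated decay, 0.64, 0.56, 1.09 and 0.88 (SE 0.13 each), and PHB1, a mitochondrial scaffold, 0.47, 0.56, 0.47 and 0.44 (SE 0.13 each). WIPF2, which binds the actin regulator WASP, had 0.43, 0.57, 0.66 and 0.79 (SE 0.13 each), and the ubiquitin-conjugating enzyme UBE2Z 0.58, 0.29, 0.45 and 0.89 (SE 0.16 each). TLK2, a kinase of chromatin assembly, had 0.14 in Ov4Cis, 0.93 in Ov4Carbo, and 0.51 and 0.67 in Ov4Carbo4 and Ov4Carbo7 (SE 0.14 each). Being near the median in 1 line thus did not place a gene near it in all.

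The members of highest level shared the shift in part. CLTC, the clathrin heavy chain, had 6.83, 6.98 and 6.93 in the parental line, 7.45, 7.42 and 7.36 in Ov4Cis, 7.47, 6.95 and 7.34 in Ov4Carbo, 7.75, 7.79 and 7.74 in Ov4Carbo4, and 7.33, 7.68 and 7.78 in Ov4Carbo7. Replicate 2 of Ov4Carbo alone overlapped the parental values. The translation initiation factor EIF1 had 0.45, 0.63, 0.34 and 0.55 (SE 0.13 each) and the helicase DDX5, which overlaps CEP95 on the opposite strand, 0.47, 0.35, 0.73 and 0.24 (SE 0.11 each). HEXIM1, an inhibitor of the elongation kinase P-TEFb, had 0.50 and 0.46 in Ov4Carbo and Ov4Carbo4, near the members' medians, but -0.38 in Ov4Cis and -0.10 in Ov4Carbo7 (SE 0.11 each). COASY, SUMO2 and CASKIN2 differed least among the 5 lines relative to their spread within lines. COASY, an enzyme of coenzyme A synthesis, had 0.00, 0.27, 0.04 and 0.25 (SE 0.21 each). For SUMO2, a ubiquitin-like modifier, the log2 fold changes of 0.50, 0.50, 0.46 and 0.38 were near the median. Its SE was 0.26 because replicate 2 of Ov4Carbo stood at 5.07 against 3.77 and 3.75. The fold change in Ov4Carbo rested mainly on that 1 sample. The exons of SUMO2 overlap those of JPT1 on the same strand.

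The comparisons among the carboplatin lines use no parental sample. Here the members' medians were close to 0. The median log2 fold change was 0.06 in Ov4Carbo4 against Ov4Carbo, 0.08 in Ov4Carbo7 against Ov4Carbo and -0.01 in Ov4Carbo7 against Ov4Carbo4. Against Ov4Carbo, 68 members were called higher in Ov4Carbo4 (23.1% of all genes) and 34 lower (19.2%). For Ov4Carbo7 there were 46 higher (18.5% of all genes) and 28 lower (18.2%). Ov4Carbo7 had 56 members higher than Ov4Carbo4 (24.0% of all genes) and 57 lower (27.1%). The members' shares were 26.1% and 13.0%, 17.6% and 10.7%, and 21.5% and 21.8%, so calls in the higher direction were about as frequent as among all genes. Calls in the lower direction were less frequent than among all genes in each comparison. Sample titles carry 2 number series, and only replicate 1 of Ov4Carbo lies in the series of Ov4Carbo4 and Ov4Carbo7. A fit of that series alone therefore has 1 sample of Ov4Carbo, which is assumed to vary like the single-cell lines, from which all of the spread comes. In that fit the members' median log2 fold change was 0.045 in Ov4Carbo4 against Ov4Carbo and 0.098 in Ov4Carbo7 against Ov4Carbo. For Ov4Carbo7 against Ov4Carbo4 it was -0.008.

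Single members did differ between the 2 single-cell lines, which share a title series. The genes named were picked by their values against the parental line or over the 5 lines, which share samples with this comparison. The differences are therefore given as a description, without p-values. MPP2 (ENSG00000108852), a scaffold protein of the membrane, had 3.34, 3.21 and 3.29 in Ov4Carbo4 and 0.59, 1.21 and 1.09 in Ov4Carbo7. The log2 difference was -2.32 (SE 0.14). Ov4Carbo lay between them, at 2.21, 2.16 and 2.33. TBX2 was also lower in Ov4Carbo7, by a log2 difference of -2.20 (SE 0.26), as was UNC13D, at -2.16 (SE 0.24). RAMP2, which reached the level limit through its values in Ov4Cis and Ov4Carbo4, was at -2.17 (SE 0.20). FAM171A2 differed by -2.09 (SE 0.19) and MEOX1 by -2.06 (SE 0.34). THRA differed by -1.20 (SE 0.15) and CEP112 by -1.02 (SE 0.17). Members that were higher in Ov4Carbo7 included TMEM101, by 3.47 (SE 0.48), and GPRC5C, by 1.99 (SE 0.18). ST6GALNAC1 was higher by 1.57 (SE 0.21) and IGFBP4 by 1.30 (SE 0.22). STAT5B was higher by 0.90 (SE 0.11). MPP2, FAM171A2, MEOX1 and STAT5B were picked as called higher in 1 derived line and lower in another, both against the parental line. In Ov4Carbo7 against Ov4Carbo4 these genes passed the limma threshold over all genes. So did TBX2, UNC13D, THRA, CEP112, TMEM101, GPRC5C, ST6GALNAC1 and IGFBP4. None of these calls was lost on leaving out any single replicate, or with an intensity trend, quantile normalization, centring, the log2(RPKM + 1) scale, a replicate block or a title series term. A limit of 1 on the absolute log2 fold change would drop STAT5B, and leaves 22 of the 113 members called in this comparison.

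The single-cell lines also differed from Ov4Carbo in single members. GJC1, HELZ and INTS2 were picked by an F-test over all lines, which already holds the values compared here. Their differences are therefore given without p-values. TMEM101 was picked by its values against the parental line, which share samples with these comparisons. Its differences are also a description, without p-values. GJC1 was higher in Ov4Carbo4 by 2.87 (SE 0.13) and in Ov4Carbo7 by 1.91 (SE 0.13). MED1 was higher by 0.72 and 0.60 (SE 0.15 each, limma adjusted p = 0.00222 and 0.00728). HELZ was higher by 0.87 and 0.73 (SE 0.11 each) and INTS2 by 0.86 and 0.55 (SE 0.12 each). TMEM101 was called lower in Ov4Carbo4 alone among the 2, with a log2 difference of -3.79 (SE 0.48), beside -0.32 (SE 0.48) in Ov4Carbo7. UNC13D was at -2.85 (SE 0.24) in Ov4Carbo7, given without a test because it reached the level limit through the parental line and Ov4Carbo. The lines and the title series cannot be told apart in these comparisons except through replicate 1 of Ov4Carbo.

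All 15 samples had the same median of 2.77 over all genes, and 13643 to 13712 genes lay above 0 log2 RPKM. The depth is unknown, so error is judged from the replicates alone. PAX8 and SOX17, which mark HGSC and its tissue of origin, were at 5.66 to 6.87 and 6.55 to 8.12 in all samples, while WT1, a further marker of HGSC, was at -6.37 to -0.98. Others of that list were low in some derived lines: MUC16 had line means of 4.60 in the parental line, -1.73 in Ov4Cis and -0.21 in Ov4Carbo7, MSLN 1.89 in the parental line and -2.29 in Ov4Cis, FOLR1 2.18, -1.06 in Ov4Cis and -0.76 in Ov4Carbo4, and EMX2 5.16, 3.34 in Ov4Cis and 3.24 in Ov4Carbo7. Of the 9 listed markers in the table, 8 had a mean of at least 1 in the parental line and 5 in Ov4Cis. EPCAM, an epithelial marker, had means of 5.98 in the parental line, 1.17 in Ov4Cis, 5.32 in Ov4Carbo, and 5.23 and 3.01 in Ov4Carbo4 and Ov4Carbo7. The summed RPKM of the 8 listed epithelial markers was 782 to 935 in the parental line and 102 to 128 in Ov4Cis. It was 345 to 408 in Ov4Carbo, 290 to 358 in Ov4Carbo4 and 229 to 249 in Ov4Carbo7. Of 8 leukocyte markers 2 were in the table and 0 reached a mean of 1. The endothelial list had 3 of 6 in the table and 1 of mean 1 or more, CDH5, and its summed RPKM was 6.37 to 7.4 in the parental line and 32.3 to 40.9 in Ov4Cis. The fibroblast list had 5 of 8 in the table, with summed RPKM of 7.23 to 9.63 in the parental line and 4.42 to 14.6 in the derived lines. The part of these markers in the members' levels was not tested.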

How the data were processed

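Polyadenylated RNA of 15 samples, 3 biological replicates of each of 5 lines, was measured. The authors deposited log2 RPKM values normalized with cqn (conditional quantile normalization), per the name of the deposited table, which has 16604 genes and 0 missing values. BWA 0.7.15-r1140, HTSeq and the builds hg19 and GRCh37 are named in the submitters' processing notes, without role or order. Depth, counting mode and strand are not given in the sources used here. Quantile normalization sets every sample to a like distribution, so differences in total RNA are not measurable.

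Gene order, biotype and exons came from GENCODE v29 (16499 genes matched), and promoters from RefSeq. Of the members, 87 have an exon that overlaps one of another protein-coding gene, 71 of them on the opposite strand, so the reads of overlapping genes cannot be told apart. A model with a coefficient per line was fitted to all genes and samples with limma 3.58.1 in R 4.3.3 (two-sided, Benjamini-Hochberg adjustment within each of 7 comparisons, threshold 0.05). Each replicate was its own sample, and p-values measure the spread between these samples. SEs of a gene are equal across comparisons because the fit shares an estimate of spread. Tables and plots used Python 3.11.15, pandas 2.3.3, numpy 2.4.6 and matplotlib 3.10.9, and the fit was tested on simulated data.

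The members, the lists and the tests were chosen with earlier results of these data known. Genes are named by a rule. It took the 4 highest and 4 lowest called members per comparison with the parental line whose 3 values did not overlap the parental ones, up to 4 members per list by F-test, and 3 genes inside and outside each end. It also took the 2 members nearest each median, the 3 with the largest and the 3 with the smallest F-test p, and the 5 of highest level. SRSF1, TRIM47, STAT3, PRCD, RHBDF2 and MXRA7 lie outside that rule and were named after their values were seen. Alternatives were another normalization, centring, filter, scale, threshold or model, a title series term, a replicate block and leaving out each replicate in turn; fits within a title series were added after seeing the data.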

Additional observations from a re-analysis of the deposited data

Results flagged for a closer look

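A few members were called higher in 1 derived line and lower in another, both against the parental line. Picking them this way nearly fixes that the lines differ, so the differences between the lines are given as a description, without p-values. Each of them also passed the limma threshold over all genes.

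GJC1, a gap junction gene, differed by 2.87 log2 units between Ov4Carbo4 and Ov4Carbo (SE 0.13), with 3 of 3 Ov4Carbo4 values above all Ov4Carbo values. STAT5B was higher in Ov4Carbo7 than in Ov4Carbo by 0.95 (SE 0.11) and than in Ov4Carbo4 by 0.90 (SE 0.11), again with no overlap of the 3 values of each line. STAT3 was higher in Ov4Carbo7 than in Ov4Carbo4 by 0.82 (SE 0.09). Its 3 values in Ov4Carbo7 were 5.85, 6.03 and 5.95, against 5.11, 5.18 and 5.07 in Ov4Carbo4.

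The remaining differences were lower in Ov4Carbo7 than in Ov4Carbo4. MPP2 differed by -2.32, FAM171A2 by -2.09, MEOX1 by -2.06 and CYB561 by -0.67. In all 4 genes the 3 values of Ov4Carbo7 lay below the 3 of Ov4Carbo4. The call of MEOX1 against the parental line was lost under a title series term in both lines. In Ov4Carbo4 it was also lost without parental replicate 1 or 2 or Ov4Carbo4 replicate 1 or 2, and in Ov4Carbo7 without parental replicate 2 or 3 or any 1 replicate of Ov4Carbo7.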

How the results depend on the processing

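Every alternative kept the direction of the 4 medians against the parental line. The title series term left 132, 127, 48 and 27 called members in Ov4Carbo4 and Ov4Carbo7 against the parental line and in the same lines against Ov4Carbo. Fits of the 2 groups alone gave 95 for Ov4Carbo against the parental line and 51 and 35 for Ov4Carbo4 and Ov4Carbo7 against Ov4Carbo. A threshold of 0.01 gave 54 and 47 for the last pair, and the first title series alone, with a single Ov4Carbo sample, 54 and 32. A log2 fold change of at least 1 left 35, 33, 50 and 52 members in Ov4Cis, Ov4Carbo, Ov4Carbo4 and Ov4Carbo7 and 19, 13 and 22 in the comparisons among the carboplatin lines. On the log2(RPKM + 1) scale, which understates low genes, the medians were 0.529, 0.507, 0.584 and 0.602. Centring gave 0.675 in Ov4Carbo4 and 0.684 in Ov4Carbo7, and the title series term 0.689 and 0.641. Members of mean 2 or more gave 0.642 in Ov4Carbo4 and 0.000 in Ov4Carbo7 against Ov4Carbo4, and members of mean 0 or more 0.659 in Ov4Carbo7 and -0.031. With the symbols left out put back, the medians were 0.630 in Ov4Carbo4, 0.656 in Ov4Carbo7, 0.054 in Ov4Carbo7 against Ov4Carbo and -0.026 in Ov4Carbo7 against Ov4Carbo4. Counts under alternatives, here and elsewhere, stand without the share of all genes called in the same fit, which was not computed. The cause of these moves was not tested.

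Leaving out 1 replicate in turn gave 178 to 191 called members in Ov4Cis, 162 to 187 in Ov4Carbo, 181 to 194 in Ov4Carbo4 and 178 to 192 in Ov4Carbo7, with medians of 0.572 to 0.606, 0.547 to 0.601, 0.636 to 0.675 and 0.65 to 0.68. In Ov4Carbo4 and Ov4Carbo7 against Ov4Carbo it gave 72 to 116 and 56 to 104 with medians of 0.05 to 0.068 and 0.063 to 0.097, and in Ov4Carbo7 against Ov4Carbo4 89 to 108 with medians of -0.026 to 0.018. The labels share replicate numbers between lines, but the numbers showed no common pairing. Of 30 same-numbered pairs 12 had a correlation of deviations above 0.1 and 14 below -0.1 (range -0.50 to 0.54). Ov4Cis had 0.330, 0.268 and 0.321 with Ov4Carbo7 and -0.418, -0.341 and -0.241 with Ov4Carbo. Pairs of unlike number were not compared, so a pairing between some lines is not excluded. With the replicate block 193, 178, 199 and 192 members were called against the parental line and 95, 69 and 104 among the carboplatin lines. Depth is unknown, so no limit from counting can be given.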
